A study of Mus musculus with 7 samples.

Results

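The mitochondrial ribosome and the respiratory chain are encoded largely in the nucleus, by genes named Mrpl and Mrps for the large and small ribosomal subunits, Nduf for complex I, Sdh for complex II, Uqcr for complex III, Cox with a digit for complex IV and Atp5 for complex V. Protein-coding genes with these names were taken from a list of chromatin sites that were more open in T follicular helper (Tfh) cells of mice treated with anti-IFNAR1 than of mice given control IgG. The list named 42 such genes, 19 of the ribosome and 23 of complexes I to V, with 1 peak each, among 4663 protein-coding gene names and 6395 peaks in all. As a share of the 187 RefSeq protein-coding genes that carry these names, 42 is 22.5%.

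The assay was ATAC-seq, which reads out open chromatin by the cuts of a transposase. The 4 anti-IFNAR1 samples came from B6/Sle1.Yaa mice injected 2 times a week for 4 weeks with an antibody whose target the title writes as IFNAR1 and the treatment labels as IFNA1. The 3 control IgG samples came from mice of the same strain and schedule given an antibody that the labels call anti-rat IgG. Both groups were 5 months old and carried Sle1, a lupus susceptibility interval, and Yaa, a Y-linked duplication that includes Tlr7. Tfh cells are CD4 T cells that support antibody responses of germinal centre B cells. They were sorted from the spleen as CD4+ CD44+ GITR- PSGL-1lo CXCR5hi PD-1hi cells, and the labels do not say whether a sample was 1 mouse or several.

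The mitochondrial ribosome translates the few respiratory chain subunits that mitochondrial DNA encodes, while its own proteins are all made from nuclear genes. Complexes I to IV pass electrons from NADH and succinate to oxygen, and complex V, the ATP synthase, uses the resulting proton gradient. Type I interferons signal through a receptor of which IFNAR1 is a subunit. Promoters of nuclear genes for mitochondrial proteins are known for binding sites of NRF1, of the ETS factor GABPA and of YY1. The list held 0 peaks on the mitochondrial chromosome, so subunits encoded there were not analysed here.

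The table gave 1 value per peak for the whole comparison and none per sample, so no spread between mice could be computed and no difference below was tested over mice. It was read as a list of peaks of the anti-IFNAR1 side over the control IgG side, so the direction of every peak was fixed by the list, and peaks higher in control IgG were not analysed here. The pileup counts the fragments that cover a summit, after scaling by the authors' peak caller, and the fold is that pileup over the local control background with 1 added to both. Both, and the q-values, are the authors' own values for each peak. The pileup could be turned back into whole fragments: the anti-IFNAR1 side was 3.54 times as deep as the control IgG side, against 1.33 for 4 and 3 samples of equal depth, and the part of this gap in the results was not tested. Fragments are given unscaled on both sides, so equal coverage would be 3.54 anti-IFNAR1 fragments for each control fragment. In bulk chromatin, a larger share of cells with an open site and a wider opening in each cell cannot be told apart. Of the markers of Tfh cells, 6 of 8 had a listed peak. The counts were 0 of 5 for B cells, 0 of 4 for CD8 T and NK cells and 2 of 6 for myeloid cells. Of Cox isoforms taken as markers of other tissues (Cox6a2, Cox7a1, Cox8b, Cox4i2, Cox6b2 and Cox8c), 0 of 6 had one. The share over all protein-coding genes was 21.1%, so a count of 0 among so few genes says little, and a listed peak is a difference and not a level, so these counts do not check the sort.

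Sequence is given for 7 listed members, taken from the RefSeq promoter table (build GRCm38.p6, 250 bases before to 50 after the gene start). Mrpl1 is shown whole because it had the largest fold of all members, and the other sequences are stretches that hold letters of NRF1, ETS factors, YY1 or the TCTCGCGAG element, each in the member of its class with the smallest q among those holding any. Mrps11 was added because its start faces that of Mrpl46. Each is written 5′ to 3′ on the strand of its gene, with motif letters in capitals; Mrpl1 held none of the NRF1, ETS, YY1 or TCTCGCGAG letters.
Mrpl1 (chr5:96209865-96210164, plus strand): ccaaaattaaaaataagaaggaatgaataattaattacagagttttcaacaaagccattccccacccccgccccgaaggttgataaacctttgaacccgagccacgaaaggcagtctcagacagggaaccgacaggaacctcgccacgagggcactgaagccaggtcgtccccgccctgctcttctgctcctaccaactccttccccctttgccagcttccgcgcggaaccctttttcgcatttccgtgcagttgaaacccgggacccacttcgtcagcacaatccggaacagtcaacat
Mrpl33 (ETS, chr5:31613891-31613990, plus strand): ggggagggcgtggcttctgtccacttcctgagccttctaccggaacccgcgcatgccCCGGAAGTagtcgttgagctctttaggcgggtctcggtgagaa
Mrps18b (NRF1, chr17:35916571-35916690, minus strand): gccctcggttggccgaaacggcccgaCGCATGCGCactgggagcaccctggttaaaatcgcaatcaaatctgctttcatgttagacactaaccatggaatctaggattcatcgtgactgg
Mrps11 (YY1, chr7:78782971-78783090, plus strand): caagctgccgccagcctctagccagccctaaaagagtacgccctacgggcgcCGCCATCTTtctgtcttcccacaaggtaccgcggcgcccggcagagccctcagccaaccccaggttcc
Ndufa11 (NRF1 and the TCTCGCGAG element, chr17:56717642-56717811, plus strand): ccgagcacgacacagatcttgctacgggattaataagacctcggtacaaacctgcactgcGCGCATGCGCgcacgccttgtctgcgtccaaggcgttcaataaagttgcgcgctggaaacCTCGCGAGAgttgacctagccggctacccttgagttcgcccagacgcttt
Cox6a1 (NRF1, chr5:115349059-115349178, minus strand): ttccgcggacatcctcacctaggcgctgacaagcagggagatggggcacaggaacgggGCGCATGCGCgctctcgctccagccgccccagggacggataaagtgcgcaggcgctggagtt
Atp5j (YY1, chr16:84834927-84835126, minus strand): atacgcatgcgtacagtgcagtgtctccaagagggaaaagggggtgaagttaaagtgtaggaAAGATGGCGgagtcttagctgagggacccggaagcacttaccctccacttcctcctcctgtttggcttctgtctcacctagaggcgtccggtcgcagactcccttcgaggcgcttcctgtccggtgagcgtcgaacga

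Counted by gene name, the shares of genes with a listed peak lay near the share over all genes. Counted by position, as given further below, the share of members was higher than that of all genes. In the list, 2 further members stood under older names, Ict1 for Mrpl58 and Usmg5 for Atp5md. Ict1 had a peak at its start, with fold 5.45 at a q of 2.31e-04. It had another at its end, with fold 3.43 at a q of 0.0094. The peak values and sections below are of the 42 members listed by their own name. Counting the 2 under older names, 44 of 187 members had a listed peak, or 23.5% (95% exact binomial interval 17.6 to 30.3). The background was 21.1% over all protein-coding genes. The intervals here and below cover counting error only. The ribosome had 20 of 78 genes listed, or 25.6% (16.4 to 36.8), and complexes I to V had 24 of 109, or 22.0% (14.6 to 31.0). The background share lay inside each of these intervals, and inside those of the 7 classes in the plot of shares by class. Within the ribosome, 14 of 49 large subunit genes (28.6%) and 6 of 29 small subunit genes (20.7%) were listed. Complex I had 12 of 49 (24.5%), complex II 3 of 8 (37.5%), complex III 1 of 8 (12.5%), complex IV 5 of 27 (18.5%) and complex V 3 of 17 (17.6%).

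**Figure D1:**
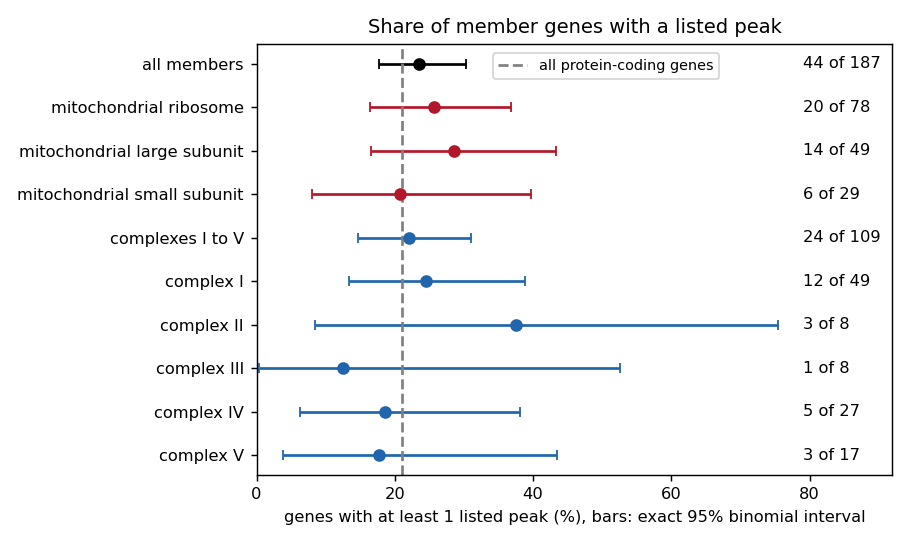
Percent of RefSeq protein-coding genes of each class with at least 1 listed peak (x axis), with exact 95% binomial intervals as bars and the counts at the right; the ribosome is red, complexes I to V blue, and the dashed line is the share over all protein-coding genes (21.1%). The interval of every class spans the dashed line.

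Stricter rules took members and background down alike. At a q of at most 0.01, 37 of 187 members were kept (19.8%), against 18.1% of all genes. With a pileup of at least 20, the members kept were 6 (3.21%) and the background was also 3.21%. An exact one-sided test was run for each peak, with the largest p of the list (6.9e-05) as its limit. It was a conditional binomial test on the decoded fragments of both sides. In the caller's window, peaks whose background was the genome rate had no control count. They were given a Poisson test against that rate, and Mrpl33, Ndufb8 and Ndufaf1 passed in this way. With the control window that the caller had used, 28 members passed (15.0%), against 14.6% of all genes. Mrpl58 was 1 of the 28 through the Ict1 peak at its end, while the peak at its start did not pass. At the site alone, control fragments were known for 18 of the 42 peaks. For the other peaks the background was an upper limit, and the largest whole number within it was used. On these counts, 11 passed (5.88%), against 5.20%. These 11 were Mrpl1, Mrpl34, Mrpl40, Mrps18b, Mrps30, Ndufa11, Ndufaf3, Sdhaf2, Cox7a2l, Cox20 and Atp5j. With 0 control fragments at a site, 39 anti-IFNAR1 fragments were needed to pass, and 21 of the 42 peaks had fewer, so those peaks could not have passed.

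By role, 34 of 163 structural subunits were listed by name (20.9%) and 7 of 21 assembly factors (33.3%), against 21.1% of all genes. The 34 leave out Mrpl58 and Atp5md, both structural and listed under older names. The 21.1% counts older names, so the share of structural subunits is understated beside it. The assembly factors were Ndufaf1, Ndufaf2 and Ndufaf3 of complex I, Sdhaf2 of complex II, which helps to attach FAD to SDHA, and Cox18, Cox19 and Cox20 of complex IV. In complex IV, 1 of 17 structural genes, Cox6a1, was listed, beside 3 of 9 assembly factors and Cox7a2l, a factor of respiratory supercomplexes. In complex I, 9 of 40 structural genes and 3 of 8 assembly factors were listed. These counts are small, and neither the difference between roles nor that from the background was tested.

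Nearly all member peaks were annotated to the start of their gene. Of the 42 member peaks, 41 were annotated to the transcription start site (TSS), or 97.6% (87.4 to 99.9), against 4632 of all 6395 listed peaks (72.4%). The 6395 also hold peaks outside protein-coding genes, which the name rule could not take. Of the 4632, 4237 were of protein-coding genes. The shares are therefore not of like sets. All 19 ribosome peaks and 22 of 23 peaks of complexes I to V were at a TSS. The exception was Ndufs4, an accessory subunit of complex I, whose peak (chr13:114387301-114387924, mm10) was annotated to intron 1, 171 bases away from that start. It had 27 anti-IFNAR1 fragments above a control background of 0.472 fragments, fold 5.86 at a q of 9.6e-05. Since nearly all members lay at a TSS, the values below are also set beside those of the 4196 TSS peaks of other protein-coding genes.

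The member peaks were close in size to the rest of the list. The median fold was 5.15 over ribosome peaks (2.65 to 14.5) and 4.86 over peaks of complexes I to V (3.13 to 6.55), against 4.74 over all listed peaks and 4.77 over other TSS peaks. The median pileup was 12.2 over ribosome peaks (5.09 to 25.7) and 10.5 over peaks of complexes I to V (3.39 to 29.1), against 11.6 over all listed peaks and 13.0 over other TSS peaks. In fragments of the anti-IFNAR1 side, these medians were 43 for the ribosome and 37 for the complexes. They were 41 for the list and 46 for other TSS peaks. The ranges of ribosome and complexes overlapped widely in both measures, and 25 of the 42 members lay above the list's median fold and 20 above its median pileup. The median −log10 q was 3.64 for members and for the list, and 4.09 for other TSS peaks.

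Of the folds, 25 lay from 4 to 6, 7 over 6 and 10 under 4. The 1 added to both sides narrows these folds where the background is low. The depth-scaled ratio of fragments without it, which 39 members with a control count have, ran from 2.92 (Mrpl18) to 22.8 (Mrps15) and 71.9 (Mrpl1), with a median of 7.59. Mrps15 and Mrpl52, at ratios of 22.8 and 21.6, had folds of 5.15 and 4.93, and each ratio rested on 1 control fragment in the window. The control background behind them was small. For 18 members it was read at the site itself and for 19 in a window of 1 kb. A window of 10 kb served 2 members, and the genome rate of 0.132 fragments the remaining 3. A background of at least 1 fragment was behind 30 members (71.4%), against 68.4% of all listed peaks and 75.4% of other TSS peaks. The median background was 1.00 fragment over ribosome peaks and 1.42 over peaks of the complexes. Over the list it was 1.49, and over other TSS peaks 2.0.

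**Figure D2:**
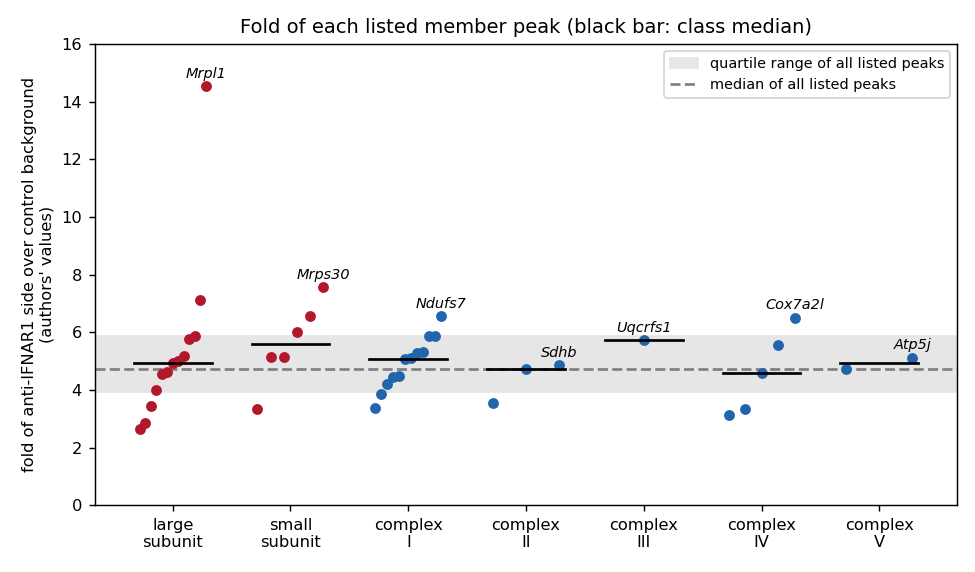
Fold of the anti-IFNAR1 side over the local control IgG background (y axis, authors' values, linear scale) for the 42 listed member peaks by class; each dot is 1 gene, black bars are class medians, and the grey band and dashed line are the quartile range and median of all listed peaks. Mrpl1, at 14.5, stands above the other members, which lie from 2.65 to 7.57.

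In the large subunit of the ribosome, Mrpl1 had the smallest q of all members. Its peak (chr5:96208791-96210350) held 60 anti-IFNAR1 fragments at the summit, against a background of 0.236 fragments that stood for 1 control IgG fragment in a 1 kb window, with fold 14.5 at a q of 2.15e-20, rank 22 of the 6395 peaks. After depth scaling the fragment ratio was 71.9, with an exact 95% interval of 12.4 to 2885, so the size of the difference was poorly fixed by 1 control fragment. Mrpl34 (chr8:71463023-71464751) had 91 fragments above a control background of 3.54, fold 5.89 at a q of 3.46e-10. Its summit lay 1512 bases before the RefSeq start of Mrpl34, farther than that of any other member with a promoter entry. The peak ended before that start. At the other end, Mrpl18 (chr17:12916276-12916743) had 62 fragments above a control background of 6, fold 2.65 at a q of 0.0418, the largest of the members.

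The other large subunit peaks lay between these. Mrpl33, Mrpl36, Mrpl39 and Mrpl4 had folds of 7.13, 5.76, 5.02 and 5.16 on 25 to 33 fragments, and Mrpl52 a fold of 4.93 on 18 fragments. Mrpl40, Mrpl23 and Mrpl43 had folds of 4.61, 4.56 and 4.00 on 59, 43 and 44 fragments. The lowest folds besides Mrpl18 were those of Mrpl38 and Mrpl48, at 3.44 and 2.85 with q of 0.0352 and 0.0163. All 13 encode structural proteins of the large subunit. For Mrpl33, as for Ndufb8 and Ndufaf1 of complex I, the background was the genome rate, so the fold had no local control count behind it.

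In the small subunit, Mrps30 (chr13:118386714-118387347) had 50 anti-IFNAR1 fragments against 1 control fragment at the site, fold 7.57 at a q of 4.12e-09; despite its name, the mammalian MRPS30 protein sits in the large subunit. Mrps18b (chr17:35916424-35916784) had 88 fragments above a control background of 4.01, fold 5.16 at a q of 1.92e-08. The peaks of Mrps23, Mrps11 and Mrps15 had folds of 6.58, 6.01 and 5.15 on 43, 39 and 19 fragments. Mrps9 (chr1:42851301-42851625) had the largest q of the small subunit, 0.0352, with 32 fragments against 2 control fragments at the site and a fold of 3.35. With 1 control fragment, the depth-scaled ratio of Mrps30 was 14.1 with an interval of 2.42 to 569.

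In complex I, the NADH dehydrogenase, Ndufa11, a membrane-arm subunit, had the smallest q (3.07e-08) with 82 fragments above a control background of 3.78 at chr17:56717089-56717955, a fold of 5.06. Ndufs7, which carries an iron-sulfur cluster of the electron path, had 47 fragments above a control background of 1.18 at chr10:80249124-80249699, fold 6.55 at a q of 2.68e-07. The largest q was that of Ndufb10 (chr17:24724025-24724391), 0.0352, with 17 fragments above a control background of 0.378, at fold 4.21. Core subunits Ndufs8 and Ndufv2 had folds of 4.48 and 3.37, and accessory subunits Ndufb8 and Ndufa8 folds of 5.88 and 4.44. Ndufa4, whose product is now placed in complex IV, had a fold of 5.31. Among the assembly factors, Ndufaf3 had 70 fragments and a fold of 5.11, Ndufaf2 24 fragments and a fold of 5.29, and Ndufaf1 12 fragments and a fold of 3.88, the fewest fragments of any member.

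In complex II, succinate dehydrogenase, the assembly factor Sdhaf2 had 80 fragments against 4 control fragments at the site (chr19:10525203-10526140), fold 4.72 at a q of 3.88e-07. Sdhb, the iron-sulfur subunit, had 38 fragments above a control background of 1.42 (chr4:140961342-140961595), with fold 4.86 at a q of 5.32e-04. Sdhd, a membrane anchor, had 34 fragments against 2 control fragments (chr9:50603653-50604029), with fold 3.54 at a q of 0.0352. Complex III had a single listed gene, Uqcrfs1, the Rieske iron-sulfur protein, with 37 fragments against 1 (chr13:30544907-30545358), fold 5.73 at a q of 2.85e-05.

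In complex IV, cytochrome c oxidase, Cox7a2l (chr17:83514352-83514626) had 52 fragments above a control background of 1.42, fold 6.50 at a q of 2.65e-07. Cox20 (chr1:178318260-178319069), a chaperone of the COX2 subunit, had the most fragments of any member, 103, but also the highest background, 8 control fragments at the site, at fold 3.35 (q of 8.1e-06). Its depth-scaled ratio of 3.64 had an interval of 1.78 to 8.65. Cox18 (chr5:90223738-90224106), a membrane insertase for COX2, had 63 fragments against 5, a fold of 3.13 and the largest q of complex IV, 0.00604. Cox6a1 and Cox19 had folds of 5.55 and 4.60 on 30 and 29 fragments. In complex V, Atp5j (chr16:84834986-84835368), coupling factor 6 of the stalk, had 83 fragments above a control background of 3.78, fold 5.12 at a q of 3.07e-08. Atp5c1 (chr2:10080048-10080447), the gamma subunit of the rotor, had 37 fragments above a control background of 1.42, fold 4.74 at a q of 5.32e-04.

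**Figure D3:**
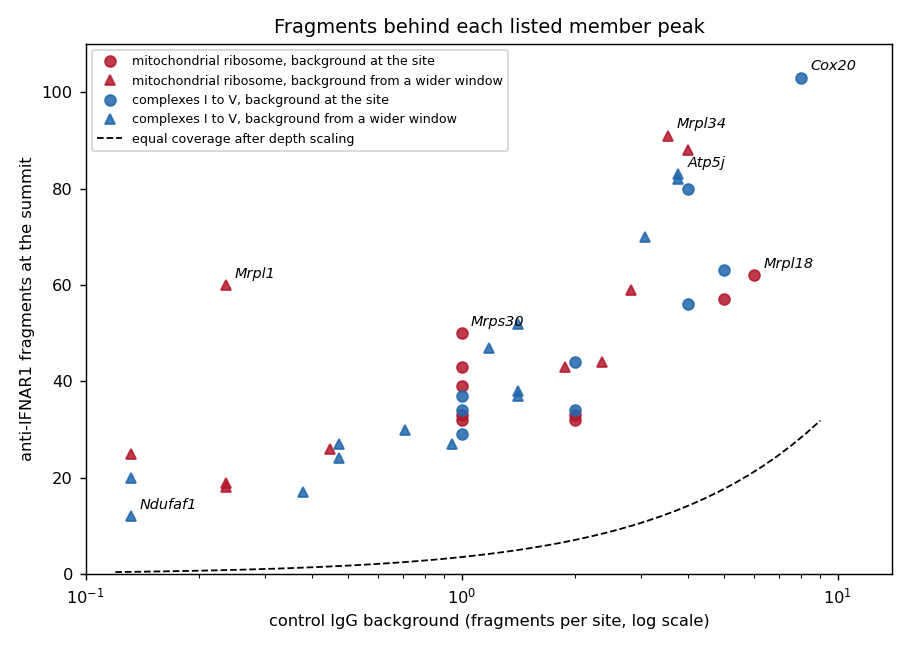
Anti-IFNAR1 fragments at the summit (y axis, linear) against the control IgG background (x axis, fragments per site, log scale) for the 42 member peaks; circles have a background read at the site, triangles from a wider window, and the dashed line is equal coverage at the depth ratio of 3.54. All members lie above the line, as the list requires, and Cox20 combines the most fragments (103) with the highest background (8).

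Members listed by name and the rest, called unlisted here, were close in the share that started next to a neighbour transcribed the other way. Of the unlisted members, 15 had a listed peak within 1 kb of a start under another gene name. The unlisted are therefore not all members without a peak. A divergent partner, a protein-coding gene on the other strand whose RefSeq start lay within 1 kb upstream, was found for 13 of the 39 listed members with a promoter entry (33.3%) and for 36 of the 119 unlisted ones (30.3%), against 363 of 3341 genes with a listed TSS peak (10.9%) and 1483 of 17491 protein-coding genes (8.48%). The 13 pairs were Mrpl40 with Hira, Mrpl43 with Twnk, Mrpl18 with Tcp1, Mrps18b with Ppp1r10, Mrps11 with Mrpl46, Ndufa11 with Vmac, Ndufa4 with Phf14, Ndufaf2 with Ercc8, Ndufa8 with Morn5, Sdhaf2 with Cpsf7, Sdhd with Timm8b, Atp5j with Gabpa and Atp5c1 with Kin. Several partners also serve mitochondria: Twnk is the helicase of mitochondrial DNA, Mrpl46 is a protein of the large subunit, Timm8b takes part in protein import, and Gabpa encodes the ETS factor named above.

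In these 13 pairs the peak lay at or near both genes. The peak spanned the member's own start in 10, the partner's start in 8 and both in 6, and the summit lay nearer to the partner in 9 and nearer to the member in 4. In Atp5j the starts were 148 bases apart and in Mrps11 42 bases.

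Peaks given to neighbouring genes add to the members. Of the 158 members with a promoter entry, 41 were listed by the table's names, older names included (25.9%), against 21.6% of all genes with such an entry. When any listed peak within 1 kb of a RefSeq start was counted, whatever gene the table had named, 54 of these 158 had one, or 34.2% (26.8 to 42.1), against 23.4% of all genes. The ribosome had 25 of 69 (36.2%) and complexes I to V 29 of 89 (32.6%). Members without an own name in the table that had such a peak were 15, the 2 under older names and 13 whose peak the table gave to a neighbour. Those with the highest folds were Mrpl10 in a peak named Lrrc46 (8.88), Mrpl41 in one named Pnpla7 (7.71), Sdhaf1 in one named E130208F15Rik (7.26) and Uqcrh in one named Lrrc41 (6.46). The others were Mrpl46, Mrpl51, Mrpl53, Mrps7, Mrps27, Ndufa13, Ndufaf7, Ndufv3 and Atp5d.

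Set apart by partner, members with a divergent partner had a listed peak within 1 kb in 21 of 49 (42.9%, interval 28.8 to 57.8), against 49.5% of other genes with a partner. Members without one had a peak in 33 of 109 (30.3%, interval 21.8 to 39.8), against 21.0% of other genes without a partner. Among genes with a partner the members' share was thus lower than that of other genes, and among genes without one it was higher; neither difference was tested.

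**Figure D4:**
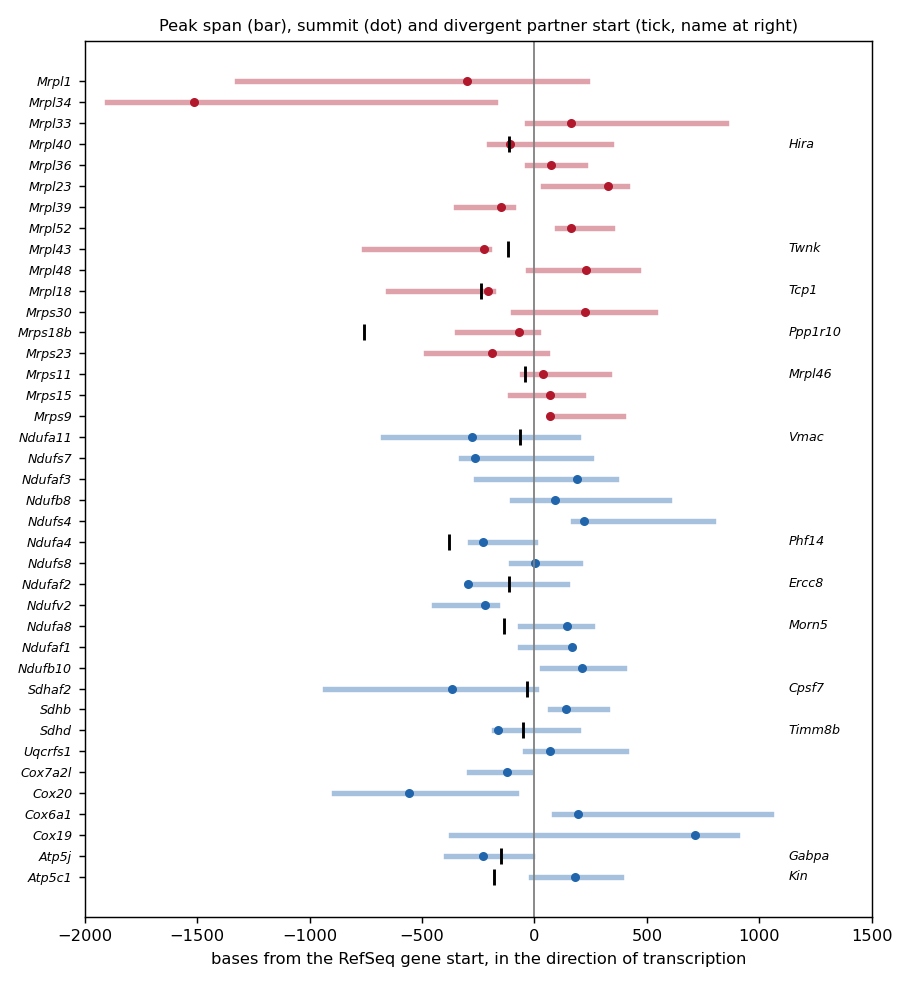
Position of each listed member peak relative to the RefSeq start of its gene, in bases in the direction of transcription (x axis), for the 39 members with a promoter entry; bars are peak spans, dots are summits (red ribosome, blue complexes I to V), and black ticks are starts of divergent partners named at the right. The summit of Mrpl34, 1512 bases upstream, lies farthest from its start.

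Summits lay on both sides of the start. For the 38 TSS peaks with a RefSeq start, the median distance was 189 bases, 163 for the ribosome and 195 for complexes I to V, against 191 for 3412 TSS peaks of other genes. Within 250 bases lay 29 member summits (76.3%), against 64.4% of the others, and within 100 bases 8 (21.1%), against 27.4%. Upstream of the start were 18 and downstream 20. Member peaks had a median width of 422 bases, against 539 for the list and 577 for other TSS peaks.

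The searched promoter letters of NRF1 (GCGCATGCG), ETS factors (CCGGAAGT), YY1 (AAGATGGCG) and the TCTCGCGAG element were more frequent in member promoters than in others, whether or not the member was listed. At least 1 of these 4, on either strand of the 300 bases, was present in 14 of 39 listed members (35.9%) and in 40 of 119 members without an assigned peak (33.6%), against 521 of 3301 other genes with a listed TSS peak (15.8%) and 1737 of 17491 promoters (9.93%). Of these 119 members, 15 had a listed peak within 1 kb of a start under another gene name. For members listed by name the promoter entry nearest the summit was used, and for all other genes the first entry. None of these differences was tested. NRF1 letters were in 12.8% of listed and 10.1% of unlisted members, against 4.48% of other listed genes and 2.41% of all promoters, and YY1 letters in 12.8% and 10.1%, against 3.48% and 1.95%. ETS letters were in 10.3% of listed and 12.6% of unlisted members, against 7.24% and 5.29%. The listed ones were 4 of 17 in the ribosome (Mrpl18, Mrpl33, Mrpl43 and Mrpl52) and 0 of 22 in the complexes. Over listed and unlisted members together, they were 11 of 69 in the ribosome (15.9%) and 8 of 89 in the complexes (8.99%). The TCTCGCGAG letters were in 2.56% of listed members, 1 gene, and 3.36% of unlisted ones, against 2.03% and 1.02%.

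In the sequences above, the ETS letters of Mrpl33 lay 3 bases before the start and the NRF1 letters of Ndufa11, which match on both overlapping strands, 60 bases before it, with the TCTCGCGAG letters on the other strand at the start itself. The YY1 letters lay 88 bases before the start in Atp5j and, on the other strand, 108 bases before it in Mrps11. In Ndufa11 and Mrpl1 all 300 promoter bases lay inside the peak, in Mrps18b 267, in Atp5j 241, in Mrps11 106 and in Mrpl33 85. In Cox6a1 it was 0, and its NRF1 letters, 162 bases before the start, lay outside the listed peak, as did the YY1 letters of Mrps11. The marked letters of the other 4 printed stretches lay inside the peak. The remaining letters were no more frequent in listed members than in other genes with a listed TSS peak. GGGGCGGGG of SP1 was in 20.5% of listed and 15.1% of unlisted members, against 25.8% of other listed genes and 15.5% of all promoters. CCAAT was in 35.9% and 42.0%, against 39.8% and 39.0%, and the E-box CACGTG in 2.56% and 8.40%, against 10.3% and 7.90%. The median GC content was 58.7% in listed members, against 62.3% in other genes with a listed TSS peak and 56.3% in all promoters.

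**Figure D5:**
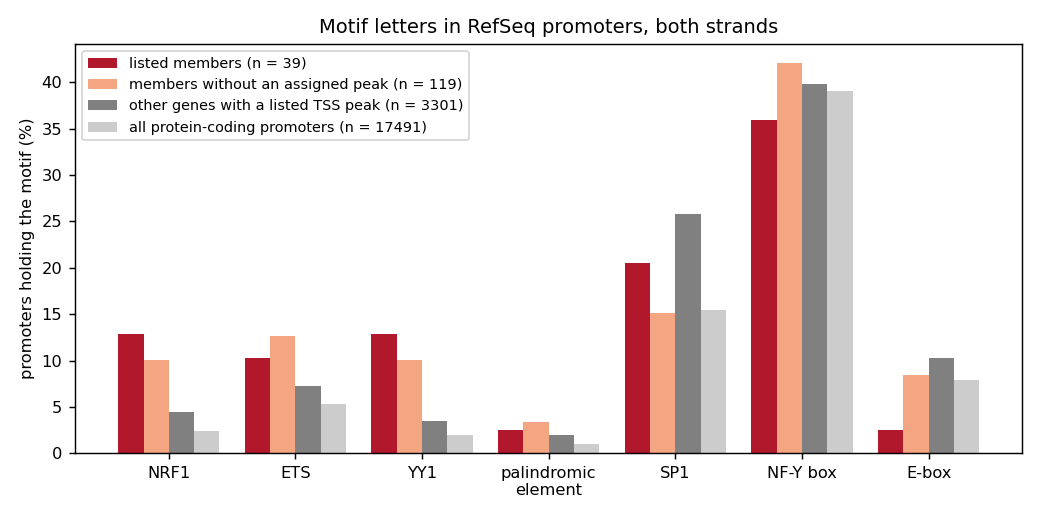
Percent of RefSeq promoters (y axis, linear from 0) that hold each searched motif on either strand, for 39 listed members, 119 members without an assigned peak, 3301 other genes with a listed TSS peak and all 17491 protein-coding promoters; the palindromic element is TCTCGCGAG and the NF-Y box CCAAT. NRF1 and YY1 letters are in 12.8% of listed members, against 4.48% and 3.48% of other genes with a listed TSS peak. The 119 members stand close to the listed ones, and 15 of them had a listed peak within 1 kb under another gene name.

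In the lists of other mitochondrial genes given here, the listed share lay from 20.7% to 52.6%. Of 19 regulators of mitochondrial transcription and biogenesis, 10 had a listed peak (52.6%), against the 21.1% of all genes: Nrf1, Gabpb1, Yy1, Pprc1, Tfam, Tfb1m, Tfb2m, Mterf2, Polg2 and Myc. Myc, a growth regulator that also acts on mitochondrial genes, had the highest fold among them, 8.73 on 39 fragments, and Tfam, which packages mitochondrial DNA, had 4.48 on 44 fragments. Among translation factors 4 of 14 were listed (28.6%), including Tufm, the elongation factor, with a fold of 5.13 on 17 fragments. They also include Ict1, the older name of Mrpl58, which was counted among the members above. Ribosome assembly factors had 5 of 19 (26.3%), of which Mrm1, an rRNA methyltransferase, had a fold of 6.75 on 88 fragments. Tfb1m was counted here and among the regulators. Chain assembly factors outside the name rule, with cytochrome c, had 6 of 29 (20.7%), among them Sco2, a copper chaperone of complex IV, with a fold of 9.69 on 65 fragments against 1, and Cycs, cytochrome c itself, with 3.42 on 57 fragments. Protein import had 6 of the 22 genes that could be matched (27.3%). These lists were chosen with earlier results known and none was tested.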

How the data were processed

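ATAC-seq was measured in 7 samples, 4 anti-IFNAR1 and 3 control IgG, grouped by the treatment label. The submitters' processing notes name, with no role or order, build mm10, BWA (0.7.9a), bedtools, DESeq2, DiffBind (2.0.7) and MACS2 (2.1.0.20150420). Not given in the sources used here is how cut sites were shifted or duplicates treated. Per the file headers, the signal deposited is the pileup coverage at each summit. The authors' fold enrichment is a ratio over the local background, also deposited. The p-value and q-value of each peak were deposited by the authors as −log10 values; damaged headers were read from the values, and a recomputed Poisson −log10 p differed by at most 3.9e-05. Peak names state IFN against Ig, from which the direction was read; the libraries of each side are not stated and were assumed to be pooled. Depth per sample is unknown.

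A planned test over samples could not be run, because the table holds 1 comparison. Pileups were whole multiples of 0.283 within 0.005 and were converted to fragments; the background followed from fold and pileup with a pseudocount of 1 and a fragment length of 236 bases. The decoding was run on data simulated with these same settings, which checks the code and cannot check the settings. Peaks were matched to RefSeq genes of GRCm38.p6 by name and position: 5148 peaks matched and 5 matches were dropped for position. Intervals are exact 95% binomial. Genes described in full were, per class, those with the 2 smallest and the largest q and any outside a TSS. This rule covered the 42 members listed by their own name, none of which had 2 or more peaks. Alternatives were a q of 0.01, a pileup of 20, exact tests, structural subunits alone, 1 peak per gene and other gene assignments. The exact tests were binomial, except Poisson in the caller's window for peaks at the genome rate. Members and lists were chosen with earlier results of these data known. Python 3.11.15, pandas 2.3.3, numpy 2.4.6, scipy 1.17.1 and matplotlib 3.10.9 were used. Of the import list, Grpel1 was not matched. The result of 1 further gene list is not reported here.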

Additional observations from a re-analysis of the deposited data

How the results depend on the processing

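With a pileup of at least 20, the ribosome kept 2 of 19 listed members and complexes I to V kept 4 of 23, with median pileups of 25.3 and 23.32 against 12.2 and 10.5. Tested exactly in the caller's window, 11 of the 19 ribosome members listed by their own name passed. The exact test at the site kept 5 ribosome members and 6 of the complexes, with median pileups of 16.96 and 22.9. Structural subunits alone left 15 members of the complexes. The TSS share of the complexes, 95.7%, was 100% with a pileup of at least 20, at the site and with summits within 1 kb of the table's own TSS, a setting that gave 94.7% for the ribosome, against 100% by section. The fewer peaks follow from the construction of each filter. The median fold lay from 5.15 to 5.89 for the ribosome and from 4.86 to 5.09 for the complexes under the alternatives run. Summits within 1 kb of the RefSeq start, an alternative chosen after seeing the data, gave 94.1% of the 17 ribosome peaks and 100% of the 22 peaks of the complexes that have such a start; 3 members without one are left out. No paired analysis was possible because the table carries no value per sample, and for the same reason no replicate could be left out. The control side, with few fragments at most sites, limits the precision of every fold.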
